A study of Homo sapiens with 54 samples.

Results

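HT-29 cells, a human colon adenocarcinoma line of epithelial origin, were compared at 16 h after stimulation with a high or a low dose of tumour necrosis factor (TNF). The arrays were taken by treatment and time as labelled. The high side held 6 arrays, all with 100 ng/ml TNF: 2 arrays with TNF alone, 2 with added epidermal growth factor (EGF, 100 ng/ml) and 2 with added insulin (500 ng/ml). The low side held 6 arrays, all with 5 ng/ml TNF: 2 arrays with TNF alone, 2 with added EGF (1 ng/ml) and 2 with added insulin (5 ng/ml). These 12 arrays are part of a series of 54 arrays in 27 groups. Cells without TNF, given 100 ng/ml EGF, 500 ng/ml insulin or neither (2 arrays each at 16 h), serve as a measured background. All groups, the untreated one included, were seeded at 50000 cells per cm2 and had been primed for 24 h in interferon-gamma (200 U/ml), so every level below is that of interferon-primed cells of a single tumour line. In the 2 mixtures the dose of EGF or insulin differs together with that of TNF, and the 2 cannot be told apart there. Only the arrays with TNF alone differ in TNF dose and nothing else.

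TNF binds the receptors TNFRSF1A and TNFRSF1B on the cell surface. The adaptors they recruit activate the transcription factor NF-kB and the stress kinases JNK and p38, and can also start apoptosis through caspase-8. NF-kB then switches on chemokines, cytokines, adhesion molecules and survival proteins, together with its own inhibitors. In epithelium of the gut, TNF is known as a driver of inflammation, and interferon-gamma is known to make HT-29 cells more sensitive to killing by TNF.

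RNA was measured as the authors' MAS5 signals on Affymetrix human genome arrays, and 8105 genes passed the filter on low signal, each described by 1 probe set. Median signals of single arrays were between 110.9 and 149 on the high side and between 134.3 and 152.2 on the low side. The log2 signals of the 2 replicates of a group correlated across probe sets by 0.959 to 0.971. The log2 ratio of ACTB signal from the 3′ to the 5′ end of the transcript, which is higher in shortened RNA, was highest among the 12 arrays in TNF 100 ng/ml with insulin 500 ng/ml replicate 1, at 0.63. The same ratio for GAPDH was highest among the 12 in TNF 5 ng/ml with insulin 5 ng/ml replicate 2, at 0.35. Over the 54 arrays of the series these ratios reached 1.19 for ACTB and 0.48 for GAPDH. Without both arrays 34 of the 92 called genes among those named lost their call, with adjusted p of 0.0511 to 0.283, and list counts that moved are given beside the lists. The summed signal of 12 intestinal epithelial markers was 59830 to 92060 on the high side and 69850 to 91890 on the low side. Of these 12 markers 9 passed the filter. CDH17, CDX1 and CDX2 did not, with signals of at most 117.4, 35.39 and 17.56 on either side. The summed signals of the measured leukocyte markers were at most 1065 and 1034, those of fibroblast markers 694.4 and 775.7, and those of endothelial markers 323.9 and 320.3. In bulk RNA, fewer cells with a transcript and less transcript per cell cannot be told apart.

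At 16 h the high dose gave higher levels than the low dose of 6 of 9 CXC and CX3C chemokines, 2 of 3 CC chemokines, interferon-beta and 10 of 18 NF-kB feedback genes. It gave lower levels of 14 of 36 genes of G1/S and DNA replication, or 5 after median centring. The inflammatory chemokine CCL5 differed most, with a signal 5.49-fold higher at the high dose. The interferon-beta gene IFNB1 followed at 4.39-fold. The mitochondrial carrier UCP2 was 2.07-fold lower. Differences are log2 of TNF 100 minus TNF 5 ng/ml, taken in each of the 3 settings (TNF alone, with EGF, with insulin) and averaged. They are given with ± standard errors (SE), over 6 arrays a side unless a setting is named. A gene rose or fell only where its adjusted p in limma was under 0.05. Of 8105 genes, 190 rose (2.34%) and 241 fell (2.97%), and 21 of the first and 8 of the second changed at least 2-fold. The labels number the replicates but do not state a pairing. Same-numbered arrays deviated together (correlations of 0.149 to 0.303 between the 6 groups), which the main fit leaves out. With replicate as a block 328 rose and 485 fell. The split between rises and falls depended on the scaling of the arrays. The rises were 44.1% of the calls as deposited, 50.7% after quantile normalization (182 rises, 177 falls) and 82.8% after centring each array on its median (192 rises, 40 falls). The median difference of all genes was -0.06 as deposited and 0.03 after centring. Without TNF 100 ng/ml replicate 2 the calls numbered 270, against 431 with all arrays, and without both arrays of high 3′ to 5′ ratio they numbered 244. On single arrays the 2 sides did not overlap for 107 of the 190 rises and 75 of the 241 falls. Over all genes measured, all 6 high arrays lay above all 6 low ones for 1.68% and below them for 1.54%.

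Chemokines, the secreted proteins that draw leukocytes into tissue, held the largest rise. CCL5, which attracts T cells and monocytes, had signals of 4480 and 3750 with TNF 100 ng/ml alone, against 742 and 468 with TNF 5 ng/ml alone. With EGF its signals were 3100 and 3970 at the high doses, against 721 and 634 at the low doses, and with insulin 3730 and 2560, against 550 and 747. All 6 high arrays thus lay above all 6 low arrays, which in turn lay above the untreated arrays at 96.3 and 127. Its difference of 2.46 ± 0.18 (adjusted p = 2.17e-11) was 2.77 with TNF alone, 2.35 with EGF and 2.25 with insulin, each past the threshold on its own. CCL22, which attracts regulatory and helper T cells, ranged over 1490 to 3780 (median 2900) on the high side, against 659 to 1180 (median 798) on the low side. Its difference was 1.60 ± 0.25 (adjusted p = 6.74e-05). By setting CCL22 passed only with insulin (2.19, adjusted p = 0.0106). It had 1.24 with TNF alone (adjusted p = 0.306) and 1.37 with EGF (adjusted p = 0.124). The neutrophil chemoattractant CXCL8 ranged over 7370 to 14700 (median 10700) at the high dose and 3140 to 6420 (median 4180) at the low dose. It rose by 1.30 ± 0.19 (adjusted p = 2.48e-05), and the sides did not overlap. CXCL1, of the same neutrophil-attracting family, lay in a narrow band of 1860 to 2120 at the high dose against 700 to 1050 at the low dose, a rise of 1.17 ± 0.14 (adjusted p = 1.44e-06). CXCL3 rose by 0.82 ± 0.14 and the membrane-bound CX3CL1 by 0.54 ± 0.10.

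Of the 9 CXC and CX3C chemokines measured, 6 rose and 0 fell, with a median difference of 0.53. Of the 3 CC chemokines, 2 rose, and their median was 1.60. Both counts were the same with the replicate block, after quantile normalization, after median centring and without both arrays of high ratio. CCL20, which attracts dendritic cells and Th17 cells, did not pass (0.56 ± 0.23, adjusted p = 0.193). CXCL10, the interferon-inducible T cell attractant, had overlapping signals of 19800 to 38700 at the high dose and 23400 to 35800 at the low dose, and a difference of 0.05 ± 0.15 (adjusted p = 0.931). It was already far above untreated cells at TNF 5 ng/ml alone, by 1.71.

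**Figure D1:**
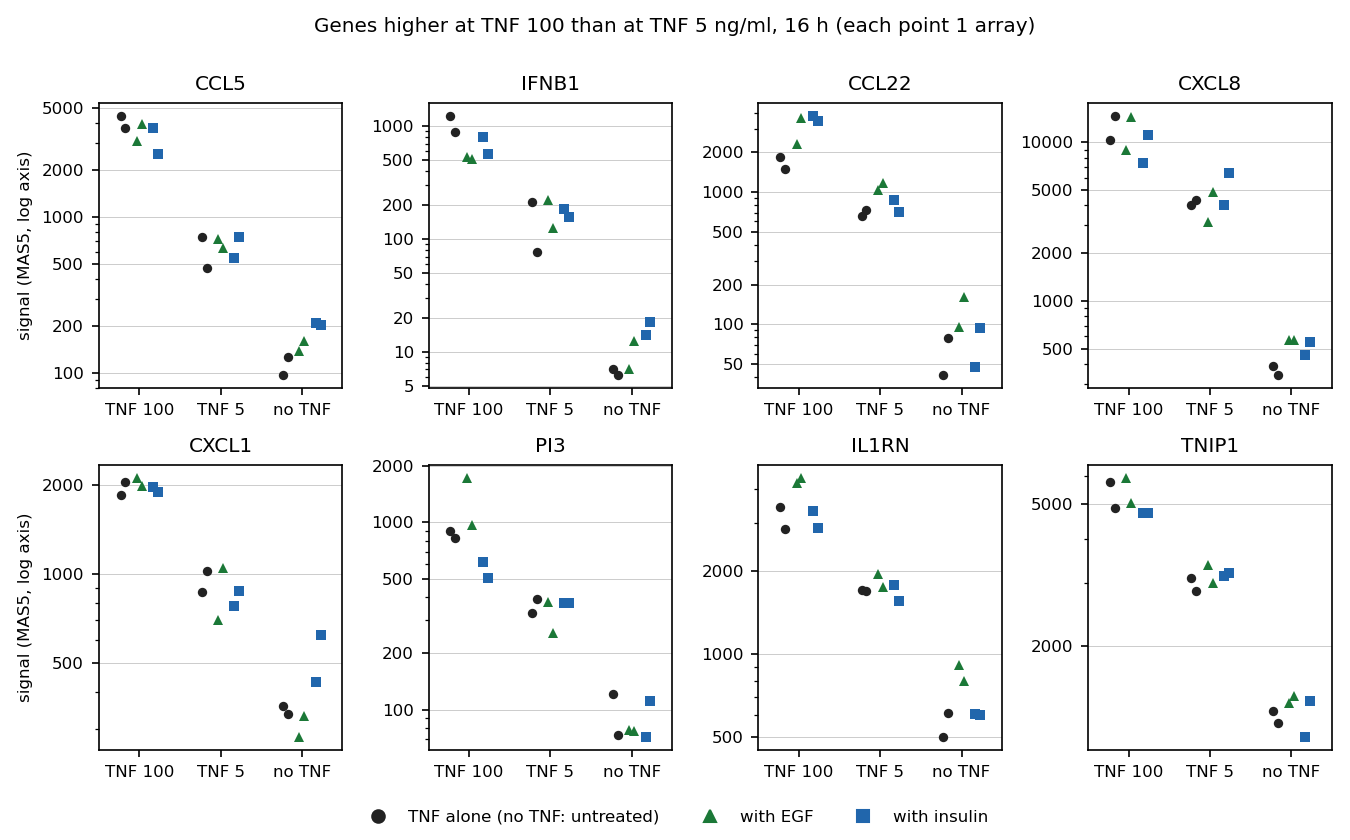
MAS5 signal on a log axis (vertical) of 8 genes that rose, in each 16 h array, by TNF dose (horizontal; 100 ng/ml, 5 ng/ml, no TNF). Each point is 1 array, circles are TNF alone (untreated where there is no TNF), triangles carry EGF and squares insulin at the doses of their group. For all 8 genes the 6 arrays at 100 ng/ml lie above the 6 arrays at 5 ng/ml, which lie above the 6 arrays without TNF.

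Interferon-beta, the cytokine by which cells warn their neighbours of viral infection, stood next to CCL5. IFNB1 had signals of 1240 and 889 with TNF 100 ng/ml alone, against 214 and 77.2 with TNF 5 ng/ml alone. With EGF the signals were 532 and 512 at the high doses, against 223 and 125 at the low doses, and with insulin 809 and 571, against 183 and 156. Untreated cells had 6.98 and 6.19, below the added constant of 12.49, so their level carries little information. The sides did not overlap, the rise was 2.13 ± 0.26 (adjusted p = 2.02e-06), and the setting with TNF alone gave 2.90 ± 0.45 (adjusted p = 0.00065). Of 16 genes of interferon induction and its receptor pathway, 3 rose and 0 fell (median 0.17), or 5 and 0 with the replicate block. Besides IFNB1 these were IFNAR2, a chain of the type I interferon receptor, by 0.53 ± 0.10 (adjusted p = 0.000648), and RIGI, a sensor of viral RNA, by 0.67 ± 0.14 (adjusted p = 0.00327). JAK2, a kinase of interferon receptors, had a difference of 0.62 ± 0.20 (adjusted p = 0.0729), and 0.00377 with the block.

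Type I interferon-stimulated genes encode antiviral proteins that interferon-beta switches on, and many respond to interferon-gamma too. Of 37 measured, 8 rose and 0 fell, with a median of 0.25 against -0.06 over all genes. With the replicate block 14 rose, and 7 without both arrays of high ratio. RSAD2, an antiviral enzyme, ranged over 8030 to 8920 at the high dose and 4000 to 5150 at the low dose, and rose by 0.92 ± 0.19 (adjusted p = 0.00247). The nuclear DNA sensor IFI16 rose by 0.80 ± 0.13, the exonuclease ISG20 by 0.62 ± 0.09 and OASL, a regulator of RNA sensing, by 0.51 ± 0.09. The 2 sides did not overlap for any of these 4 genes. The step from untreated cells to TNF 5 ng/ml alone was larger for the list, with a median of 1.37.

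Among 13 targets of interferon-gamma, 3 rose and 1 fell. IDO1, which breaks down tryptophan, rose by 0.46 ± 0.12 (adjusted p = 0.0194) and APOL1, a lipid-binding protein of innate immunity, by 0.45 ± 0.12 (adjusted p = 0.03). CIITA, the master regulator of MHC class II genes, fell by 0.46 ± 0.14 (adjusted p = 0.0421). These calls rested on few arrays, and without both arrays of high ratio 1 gene of the list rose and 0 fell. IDO1 was lost in 5, APOL1 in 9 and CIITA in 10 of the 12 fits that left out a single array, with adjusted p up to 0.0769, 0.158 and 0.169. Of 11 MHC class II genes, 1 rose, against 2.34% of all genes, and 1 call says little about the list. HLA-DOB, a chain of the peptide-loading modulator HLA-DO, ranged over 726 to 1520 at the high dose and 431 to 623 at the low dose, a rise of 0.97 ± 0.20 (adjusted p = 0.00309). Of the 15 MHC class I and immunoproteasome genes 0 passed in limma, with or without the block, and 1 had an unadjusted p under 0.05.

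The 250 bases before the gene start were searched for the NF-kB consensus, and the windows of the 5 genes that rose most among those with a match are shown, because NF-kB is the best known transcription factor downstream of TNF. Sequences are from RefSeq on build GRCh38.p14, 5′ to 3′ on the strand of the gene, with the matches in capitals.
IFNB1, chr9:21077943-21078192, minus strand: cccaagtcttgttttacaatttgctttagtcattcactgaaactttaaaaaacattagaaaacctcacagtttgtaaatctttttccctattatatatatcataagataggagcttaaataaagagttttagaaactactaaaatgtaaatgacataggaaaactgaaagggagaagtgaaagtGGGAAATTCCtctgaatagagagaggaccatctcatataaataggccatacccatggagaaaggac
SERPINB7, chr18:63752807-63753056, plus strand: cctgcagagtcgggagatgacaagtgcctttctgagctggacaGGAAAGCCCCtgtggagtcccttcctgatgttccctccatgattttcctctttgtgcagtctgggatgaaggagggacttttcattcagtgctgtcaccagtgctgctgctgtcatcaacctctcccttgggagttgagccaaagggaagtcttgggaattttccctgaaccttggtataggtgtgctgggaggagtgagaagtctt
CCL22, chr16:57358533-57358782, plus strand: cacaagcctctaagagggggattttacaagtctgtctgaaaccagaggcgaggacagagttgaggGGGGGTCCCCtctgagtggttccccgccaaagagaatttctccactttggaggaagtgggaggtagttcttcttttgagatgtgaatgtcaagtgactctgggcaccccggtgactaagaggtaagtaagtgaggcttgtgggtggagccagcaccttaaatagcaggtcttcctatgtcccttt
CXCL1, chr4:73869143-73869392, plus strand: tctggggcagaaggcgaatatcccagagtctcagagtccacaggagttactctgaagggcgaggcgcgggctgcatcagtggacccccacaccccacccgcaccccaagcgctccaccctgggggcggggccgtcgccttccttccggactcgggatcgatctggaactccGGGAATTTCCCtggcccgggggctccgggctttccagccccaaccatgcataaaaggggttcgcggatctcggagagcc
TNFAIP3, chr6:137867009-137867258, plus strand: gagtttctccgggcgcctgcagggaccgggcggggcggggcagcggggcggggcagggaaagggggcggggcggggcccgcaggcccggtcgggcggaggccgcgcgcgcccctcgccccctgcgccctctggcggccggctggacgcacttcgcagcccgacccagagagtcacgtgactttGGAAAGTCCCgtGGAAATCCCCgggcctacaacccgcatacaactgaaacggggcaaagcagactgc
SERPINB7 encodes a protease inhibitor of the serpin family, TNFAIP3 the deubiquitinase A20 that limits NF-kB, and CXCL1 (overlapping) and TNFAIP3 have 2 matches each. In IFNB1 the match starts 66 bases before the gene start. Of the genes that rose, 154 had a window in the table, and 14.9% of these held the NF-kB consensus, against 4.04% of 198 genes that fell and 6.03% of all 6711 measured genes with a window. Over the whole table of 27305 windows the share was 5.05%. The core of the interferon-stimulated response element, GAAANNGAA, occurred in 9.74% of genes that rose, 5.56% of genes that fell, 6.09% of measured genes and 7.06% of the table. The AP-1 motif TGANTCA occurred in 8.44%, 2.02%, 4.14% and 6.6% of the same sets. All 3 motifs were searched on both strands, overlaps were allowed, and the shares are descriptions of these windows without a test. No window for CCL5 was used.

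NF-kB limits itself by inducing its own inhibitors, and many of these feedback genes rose while the genes of its subunits did not pass. Of 18 feedback genes measured, 10 rose and 0 fell, with a median of 0.48 (12 rose with the replicate block, 7 without both arrays of high ratio). NFKBIA, which holds NF-kB in the cytoplasm, ranged over 8150 to 11700 at the high dose and 4310 to 6280 at the low dose, and rose by 0.82 ± 0.11 (adjusted p = 8.26e-06). TNFAIP3 ranged over 2470 to 3430 at the high dose and 1130 to 1900 at the low dose, and rose by 0.87 ± 0.13 (adjusted p = 8.34e-05). For both genes the sides did not overlap. Its partner TNIP1 rose by 0.73 ± 0.08 (adjusted p = 3.38e-07) and CFLAR, which blocks caspase-8 at death receptors, by 0.50 ± 0.07 (adjusted p = 3.21e-05). TNF alone gave differences of 0.93, 0.96, 0.83 and 0.60 for NFKBIA, TNFAIP3, TNIP1 and CFLAR, and 3 of these passed in that setting on their own (TNFAIP3 had an adjusted p of 0.0513, and 0.0172 with the block). Of the 5 subunit genes 0 rose and 0 fell in limma (1 had an unadjusted p under 0.05), with differences of 0.24 ± 0.08 for RELA (adjusted p = 0.0959), 0.24 for NFKB2, 0.19 for RELB and 0.17 for NFKB1. With the block RELA passed (adjusted p = 0.0479).

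Cytokine genes moved less uniformly, and 3 of 14 rose (6 with the block). IL1RN, the natural antagonist of the interleukin-1 receptor, had signals of 2860 to 4380 at the high dose against 1560 to 1950 at the low dose. It rose by 0.99 ± 0.09 (adjusted p = 4.94e-09) and passed in all 3 settings. IL23A, a subunit of the Th17-sustaining interleukin-23, rose by 0.74 ± 0.18 (adjusted p = 0.0101). The TNF gene itself ranged over 144 to 284 at the high dose and 68.2 to 109 at the low dose, with untreated arrays at 70.3 and 51. Its rise of 1.27 ± 0.32 (adjusted p = 0.0172) was lost without both arrays of high ratio (0.0556) and without any of 4 single arrays. They were TNF 5 ng/ml replicate 1 (0.0559), TNF 5 ng/ml with EGF 1 ng/ml replicate 1 (0.0535), TNF 5 ng/ml with insulin 5 ng/ml replicate 2 (0.0549) and TNF 100 ng/ml with insulin 500 ng/ml replicate 2 (0.0607). TNFSF10, the death ligand TRAIL, had a difference of 0.29 ± 0.10 (adjusted p = 0.0832, and 0.0106 with the block).

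Of 13 genes of mucosal antiproteases and defence, 5 rose and 0 fell, with a median of 0.39. The 5 were PI3, WFDC2 and 3 serpins. The antiproteases SLPI and SERPINB3 had -0.16 and -0.06, and the defence genes LCN2, PIGR, MUC1 and MUC13 had 0.14, -0.28, 0.27 and 0.28, all short of the threshold (adjusted p = 0.337 to 0.931). PI3, the elastase inhibitor elafin, had 904 and 826 with TNF 100 ng/ml alone against 327 and 393 with TNF 5 ng/ml alone. With EGF it had 1730 and 975 against 376 and 256, and with insulin 615 and 504 against 374 and 370. The sides did not overlap, and the rise was 1.28 ± 0.16 (adjusted p = 3.91e-06). The difference was 2.02 with EGF and 0.57 with insulin, but the test of the settings against each other did not pass (adjusted p = 0.534). WFDC2, a secreted protein of the same family, rose by 0.92 ± 0.12 (adjusted p = 2.99e-06), SERPINB1, which inhibits neutrophil elastase, by 0.41 ± 0.08 (adjusted p = 0.00145), and SERPINB9, the inhibitor of granzyme B, by 0.48 ± 0.12 (adjusted p = 0.0139). SERPINB9 was lost without TNF 100 ng/ml replicate 2 (0.0624), TNF 100 ng/ml with insulin 500 ng/ml replicate 2 (0.0718) or TNF 5 ng/ml replicate 2 (0.056).

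Complement and adhesion genes followed. Of 11 complement genes 3 rose, namely CFB, the factor B of the alternative pathway, by 0.53 ± 0.10 (adjusted p = 0.000692), CD59, which blocks the membrane attack complex, by 0.50 ± 0.11 (adjusted p = 0.0064), and the C1 inhibitor SERPING1 by 0.31 ± 0.08 (adjusted p = 0.0195), which did not pass without both arrays of high ratio (0.0588), leaving 2. C1S had a difference of 0.45 ± 0.14 (adjusted p = 0.0553, and 0.0133 with the block). Of 15 adhesion and protease genes 6 rose and 0 fell, with a median of 0.43 (9 rose and 1 fell with the block), but 2 rose without both arrays of high ratio, where ICAM1 and VCAM1 did not pass (0.0921 and 0.119). PLAUR, the receptor of urokinase, rose by 0.67 ± 0.10 (adjusted p = 1.91e-05) and urokinase itself, PLAU, by 1.11 ± 0.24 (adjusted p = 0.00485). The leukocyte-binding molecules ICAM1 and VCAM1 rose by 0.53 ± 0.14 (adjusted p = 0.022) and 0.84 ± 0.23 (adjusted p = 0.0264), and were lost in 5 and 8 of the 12 fits that left out a single array, with adjusted p up to 0.088 and 0.0916.

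Other large rises were those of SERPINB7 by 1.78 ± 0.28, the cation exchanger SLC24A1 by 1.70 ± 0.35, the hexose transporter SLC2A6 by 1.49 ± 0.26 and CD38, an NAD-consuming enzyme of the cell surface, by 1.44 ± 0.34. ULBP2, a ligand of the natural killer cell receptor NKG2D, rose by 1.39 ± 0.39 and the cytoskeletal protein NAV3 by 1.25 ± 0.26. Adjusted p ranged from 0.000125 for SERPINB7 to 0.0326 for ULBP2. SLC2A6 had 1020 to 1480 at the high dose against 308 to 639 at the low dose and 20.3 and 29 in untreated cells. SERPINB7, SLC24A1 and NAV3 were dim, with low-dose signals of at most 36.3, 65.2 and 28.6. At 16 h these genes, CD38 and the TNF gene reached the filter level only in groups at the high dose, which favours rises among them. NAV3 had 0.44 with TNF alone (adjusted p = 0.948), 2.09 with EGF and 1.22 with insulin. For NAV3 the test of the settings against each other did not pass (adjusted p = 0.847). The call of ULBP2 was lost in 7 of the 12 fits that left out a single array, with an adjusted p of 0.16 at most. SLC24A1, CD38 and ULBP2 were lost without both arrays of high ratio together.

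Of 6 receptor genes for the factors given, 2 rose and 0 fell, or 1 and 0 without both arrays of high ratio, where EGFR did not pass (0.1). TNFRSF1A, the main TNF receptor of epithelial cells, differed by 0.00 ± 0.16 (adjusted p = 0.997) with signals of 1670 to 2520 at the high dose and 1420 to 2600 at the low dose. TNFRSF1B differed by 0.02 ± 0.26 (adjusted p = 0.984) and IGF1R, the insulin-like growth factor receptor, by -0.12 ± 0.22 (adjusted p = 0.86). IGF1R is counted here although no insulin-like growth factor was given. INSR, the gene of the insulin receptor, was listed but is not among the 6 genes measured. IFNGR2, a chain of the interferon-gamma receptor, rose by 0.45 ± 0.10 (adjusted p = 0.00376), and its partner IFNGR1 had 0.29 ± 0.11 (adjusted p = 0.147). EGFR rose by 0.51 ± 0.15 (adjusted p = 0.047), with 0.72 for TNF alone, 1.04 with EGF and -0.25 with insulin, and its call was lost in 11 of the 12 fits that left out a single array (adjusted p up to 0.149).

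Of 24 genes of death receptors and apoptosis, 2 rose and 0 fell (5 with the block). Among all 8105 genes 2.34% rose, and 328 genes with the block, so 2 calls in 24 say little about the list. The death receptor FAS ranged over 1560 to 2750 at the high dose and 926 to 1670 at the low dose, and rose by 0.73 ± 0.14 (adjusted p = 0.00106). PMAIP1, the BH3-only protein NOXA, rose by 0.68 ± 0.16 (adjusted p = 0.00862). CASP8 differed by 0.08 ± 0.11 (adjusted p = 0.797) and BID, which caspase-8 cleaves, by 0.29 ± 0.09 (adjusted p = 0.0704, and 0.0301 with the block). FAS and PMAIP1 had sides that overlapped. FAS had 0.49 (adjusted p = 0.0513) without both arrays of high ratio, and 1 gene of the list rose there.

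Replication genes held more falls than any other of the 32 lists. Of 36 genes of G1/S and DNA replication 14 fell and 0 rose, with a median of -0.36. With the replicate block 17 fell, and after quantile normalization 11. Over all genes the falls were 241 as deposited, 485 with the block, 177 after quantile normalization and 40 after median centring. After median centring 5 fell (median -0.26), and without both arrays of high ratio 7 fell, RFC3 no longer among them (0.0941). RFC4, a subunit of the clamp loader, ranged over 407 to 532 at the high dose and 611 to 758 at the low dose, and fell by 0.53 ± 0.09 (adjusted p = 0.000281). RRM2, a subunit of ribonucleotide reductase, ranged over 853 to 1180 at the high dose and 1200 to 1670 at the low dose, and fell by 0.54 ± 0.11 (adjusted p = 0.00179). For both the sides did not overlap. RRM2 lost its call under median centring. MCM4, part of the replicative helicase, fell by 0.65 ± 0.14 (adjusted p = 0.00358) and RFC3 by 0.51 ± 0.11 (adjusted p = 0.00451). TNF alone gave -0.50, -0.53, -0.64 and -0.55 for RFC4, RRM2, MCM4 and RFC3, with adjusted p of 0.191 to 0.359, and 0 of the 36 genes passed there on their own in limma (2 with the block), 12 with an unadjusted p under 0.05.

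Of 33 mitotic genes 7 fell and 0 rose (median -0.24), 12 with the block and 0 in limma after median centring (median -0.14, 3 with an unadjusted p under 0.05). Over all genes 40 fell after median centring. The fit without both arrays of high ratio left 4 falls. The mitotic transcription factor FOXM1 fell by 0.46 ± 0.12, the kinetochore protein NDC80 by 0.60 ± 0.16, the topoisomerase TOP2A by 0.40 ± 0.11 and the spindle protein NUSAP1 by 0.27 ± 0.07, with adjusted p of 0.0188 to 0.0274. Each of these 4 calls was lost without some single arrays, with adjusted p up to 0.121. Among 10 CDK inhibitor and growth arrest genes 1 rose and 0 fell, where 2.34% of all genes rose, so 1 call says little about the list. CDKN1A, the p21 inhibitor of cyclin-dependent kinases, rose by 0.72 ± 0.19 (adjusted p = 0.0191), but not without TNF 100 ng/ml replicate 1 (0.0913) or TNF 100 ng/ml with EGF 100 ng/ml replicate 1 (0.0637). Without both arrays of high ratio limma called 0 of these 10 genes, with CDKN1A at 0.079 and 2 genes at an unadjusted p under 0.05. GADD45A, a stress-induced growth arrest gene, differed by -0.44 ± 0.21 (adjusted p = 0.277).

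Beyond the cell cycle, UCP2, a carrier of the inner mitochondrial membrane, had 524 to 734 at the high dose and 1050 to 1480 at the low dose. It fell by 1.05 ± 0.10 (adjusted p = 8.86e-09), passed in all 3 settings and had sides that did not overlap. AKR1B10, an aldo-keto reductase that detoxifies reactive aldehydes, ranged over 578 to 1190 at the high dose and 1230 to 1660 at the low dose, a fall of 0.82 ± 0.09 (adjusted p = 2.75e-07). AKR1B10 had -0.98 with TNF alone and -1.07 with EGF, both past the threshold, and -0.41 with insulin (adjusted p = 0.355). FGFR2, a fibroblast growth factor receptor, fell by 0.90 ± 0.14 (adjusted p = 5.03e-05), with 50.8 to 98 at the high dose and 137 to 186 at the low dose. Its difference was -0.53 with TNF alone (adjusted p = 0.55), -1.33 with EGF (adjusted p = 0.00192) and -0.85 with insulin (adjusted p = 0.129). RGS2, a brake on G-protein signalling, had 256 and 274 with TNF 100 ng/ml alone against 590 and 631 with TNF 5 ng/ml alone. With insulin it had 383 and 295 against 598 and 736, and with EGF 699 and 555 against 677 and 559. It fell by 0.70 ± 0.10 over the 3 settings (adjusted p = 3.45e-05), while the setting with EGF gave 0.02 ± 0.18. The test of the settings against each other gave an adjusted p of 0.106, and 0.0168 with the replicate block.

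Of the 12 falls named for their size, UCP2 is given above. LRRC31, a leucine-rich repeat protein, fell most, by 1.38 ± 0.26 (adjusted p = 0.000952), with 13.3 to 110 at the high dose and 149 to 206 at the low dose. Its call held without any single array. At 16 h LRRC31, FGFR2, FGFR3, ATRN, FAM86C1P and the transcription factor gene CEBPA reached the filter level only in groups at the low dose or without TNF. The filter thus favours falls among them. CRYBG2, FAM86C1P, the membrane scaffold SNTB1, the growth factor receptor FGFR3 and ZMYND10, a protein of cilia assembly, fell by 1.27, 1.25, 1.22, 1.20 and 1.19. RNF130, THEM6, the mitochondrial nuclease ENDOG, ATRN and the replication factor GINS3 had differences of -0.99, -0.95, -0.94, -0.93 and -0.92. Adjusted p of these 10 genes ranged over 0.00774 to 0.0483. CRYBG2, ENDOG, ZMYND10 and RNF130 were dim, some arrays lying near the added constant. Their signals were 9.4 to 101, 10.1 to 54.1, 9.5 to 88.6 and 17.5 to 119 at the high dose. At the low dose they were 85 to 128, 24.4 to 104, 78.9 to 126 and 53.1 to 183. FAM86C1P, SNTB1, ZMYND10, THEM6, ENDOG, ATRN and GINS3 did not pass without both arrays of high ratio. All of these 10 calls were lost without at least 1 single array, with adjusted p up to 0.206. For FGFR3 the 3 arrays of replicate 2 at the high dose lay at 47.1, 62 and 45.7, and those of replicate 1 at 228, 277 and 300.

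**Figure D2:**
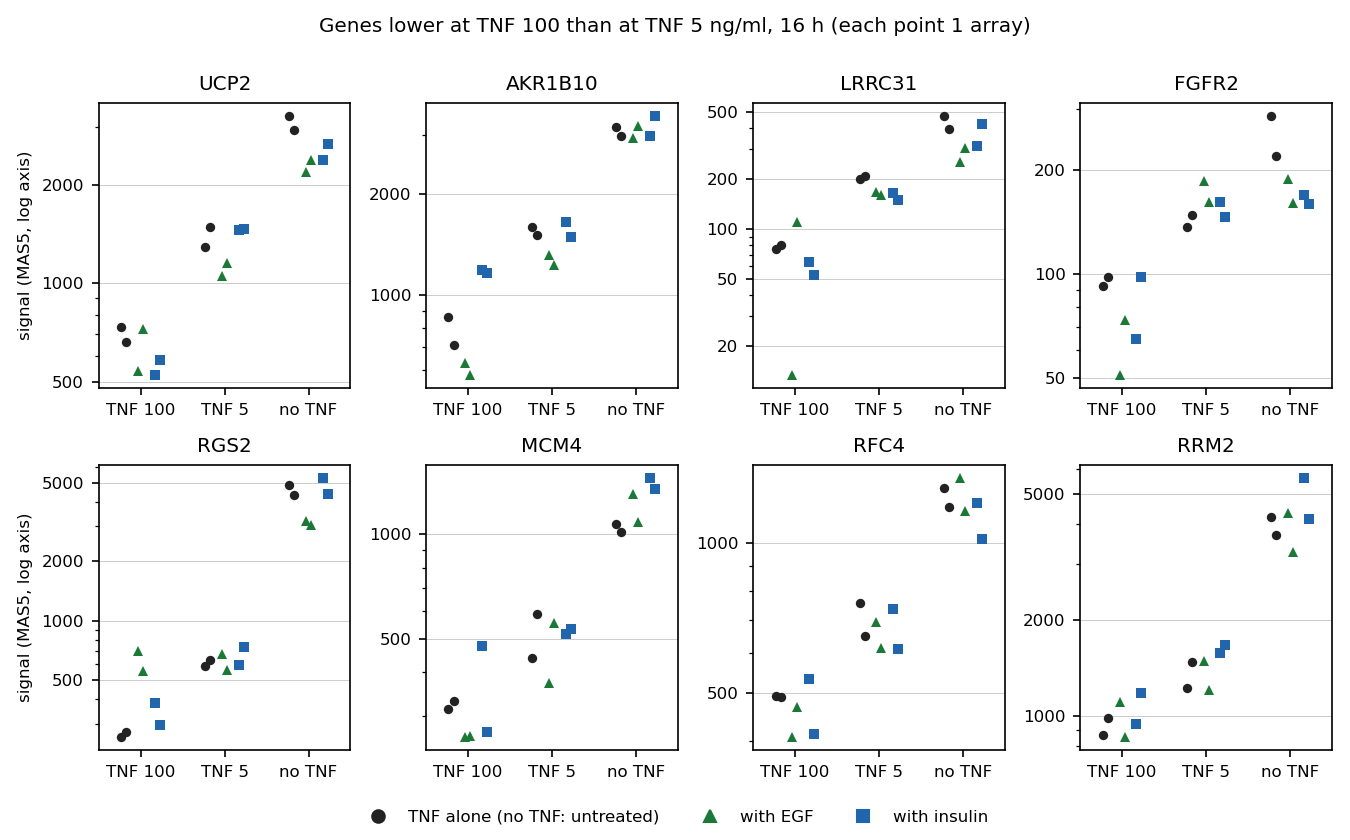
MAS5 signal on a log axis (vertical) of 8 genes that fell, in each 16 h array, by TNF dose (horizontal; 100 ng/ml, 5 ng/ml, no TNF), with circles for TNF alone (untreated where there is no TNF), triangles for EGF and squares for insulin. The 6 arrays at 100 ng/ml lie below the 6 at 5 ng/ml for UCP2, AKR1B10, LRRC31, FGFR2, RFC4 and RRM2, and overlap them for RGS2 and MCM4.

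Sterol synthesis genes, which make cholesterol, rose in part. Of 16 measured 5 rose and 0 fell (median 0.29), 7 with the block and 2 without both arrays of high ratio. MSMO1, a sterol oxidase, rose by 0.91 ± 0.17 (adjusted p = 0.00137) and SQLE, the squalene epoxidase, by 0.58 ± 0.12 (adjusted p = 0.00207). INSIG1, which restrains sterol synthesis, rose by 0.80 ± 0.21 (adjusted p = 0.0204) and FDPS, which makes farnesyl diphosphate, by 0.36 ± 0.10 (adjusted p = 0.0339). The last 2 calls were lost in 5 and 9 of the 12 fits that left out a single array, with adjusted p up to 0.109 and 0.173. The median of the list was 0.65 with EGF, 0.26 with TNF alone and 0.00 with insulin, and these differences between settings were tested only gene by gene. With TNF 5 ng/ml alone the list lay 0.27 below untreated cells, and with TNF 100 ng/ml alone 0.11 above them.

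Metallothionein and zinc genes had 2 rises and 0 falls in 10, but 6 and 1 with the replicate block, and 1 and 1 without both arrays of high ratio. MT2A, a zinc-binding metallothionein, rose by 0.55 ± 0.11 (adjusted p = 0.00222) and MT1H by 0.59 ± 0.17 (adjusted p = 0.0334). MT1H and MT2A are close paralogs, so their probe sets may share signal, and MT1H was lost in 11 of the 12 fits that left out a single array (adjusted p up to 0.139). Of 18 chaperone genes of the endoplasmic reticulum 2 rose, namely MANF by 0.44 ± 0.10 (adjusted p = 0.00508) and SDF2L1 by 0.51 ± 0.13 (adjusted p = 0.0215). SDF2L1 was lost in 6 of those 12 fits (adjusted p up to 0.0954). With both arrays of high ratio left out limma called 0 of the 18, with MANF at 0.113, SDF2L1 at 0.17 and 6 genes at an unadjusted p under 0.05. The glycolytic enzyme PGAM1 rose by 0.39 ± 0.08 (adjusted p = 0.00309), and with SLC2A6 made 2 of 17 genes of glucose use. With 2.34% of all genes rising, 2 calls in lists of 10 to 18 genes say little about a list as a whole.

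Genes that respond to the kinase ERK, which EGF activates, had 4 rises in 26 (6 rises and 1 fall with the block, 2 rises without both arrays of high ratio). The list median was 0.26 with EGF and 0.13 with insulin, but -0.04 with TNF alone. In that last setting 0 genes rose or fell, 10 differences were positive and 16 negative. The phosphatases DUSP5 and DUSP7, which switch MAP kinases off, rose by 0.61 ± 0.14 (adjusted p = 0.00823) and 0.52 ± 0.12 (adjusted p = 0.00927), and the survival gene IER3 by 0.38 ± 0.08 (adjusted p = 0.00401). TNF alone gave 0.44, 0.27 and 0.20 for DUSP5, DUSP7 and IER3, none past the threshold (adjusted p = 0.706 to 0.886). IER3 had 0.82 with EGF and 0.12 with insulin. Without both arrays DUSP5 did not pass (0.0955). PHLDA2 had a borderline rise of 0.37 ± 0.11 (adjusted p = 0.0491), lost in 10 of the 12 fits that left out a single array (adjusted p up to 0.212). In the list of FOXO and insulin targets CITED2, a transcriptional co-regulator, rose by 1.18 ± 0.25 (adjusted p = 0.00351), 1 of 15 (2 with the block). As 2.34% of all genes rose, this count says little about the list of FOXO and insulin targets.

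Of 26 genes of epithelial identity 2 fell and 0 rose, and 4 fell with the block. Over all 8105 genes the falls were 241, and 485 with the block. The list median was -0.11 against -0.06 over all genes, and 20 of the 26 differences were negative. Without both arrays of high ratio the list median was -0.10, and CEBPA did not pass (-0.85). The transcription factor CEBPA fell by 0.85 ± 0.23 (adjusted p = 0.026) and VIL1, the brush border protein villin, by 0.71 ± 0.18 (adjusted p = 0.0176). Neither passed after quantile normalization or median centring, and each was lost in 6 of the 12 fits that left out a single array, with adjusted p up to 0.0756 and 0.099. KRT20 and LGALS4, both markers of differentiated gut epithelium, had -0.30 ± 0.09 (adjusted p = 0.0577, and 0.0139 with the block) and -0.26 ± 0.09 (adjusted p = 0.0845, and 0.0331 with the block). In the remaining lists, 2 of 15 ribosome biogenesis genes fell (RRS1 by 0.55 ± 0.14, WDR12 by 0.44 ± 0.10), 1 of 26 genes of the ATF4 response (PHGDH by 0.47 ± 0.12), 1 of 15 tRNA synthetases (IARS1 by 0.34 ± 0.09) and 1 of 15 genes of BMP and TGF-beta signalling (ID2 by 0.52 ± 0.14). After median centring these 5 genes did not pass. In that fit limma gave 0 calls in these 4 lists, with 2, 2, 3 and 4 genes at an unadjusted p under 0.05. Over all genes 40 fell after that centring, so 0 calls in lists of 15 to 26 genes carry little information. With the block the falls in these lists were 3, 4, 1 and 5, and 1 tRNA synthetase rose. Without both arrays of high ratio limma called 0 genes of ribosome biogenesis, tRNA synthetases and BMP and TGF-beta signalling, with 3, 3 and 4 at an unadjusted p under 0.05. FGFR2 and FGFR3 were the 2 falls among 13 Wnt and FGF genes (3 falls and 1 rise with the block). Of 24 genes of mitochondrial respiration 0 passed in limma, with a median of 0.00 (1 had an unadjusted p under 0.05, and 5 with the block).

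**Figure D3:**
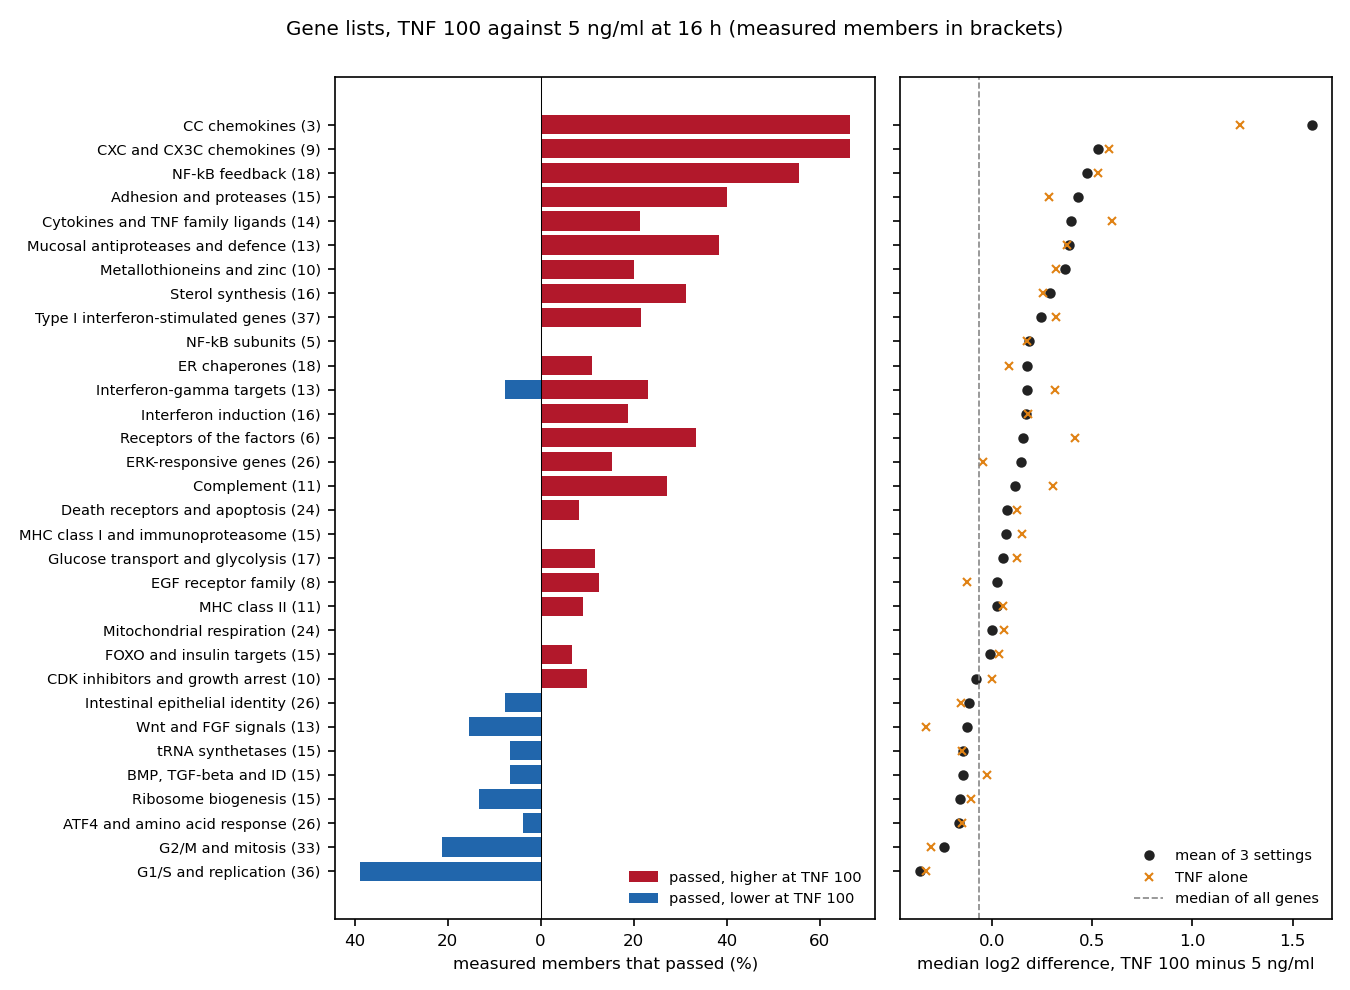
Left, share of the measured members of each gene list that rose (to the right) or fell (to the left) at TNF 100 against 5 ng/ml. Right, median log2 difference of each list over the 3 settings (circles) and with TNF alone (crosses), beside the median of all genes (dashed line, -0.06). CC and CXC chemokines stand at the top, at medians of 1.60 and 0.53, and G1/S and replication at the bottom, at -0.36.

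The setting with TNF alone, in which nothing but the TNF dose differs, asked whether the changes in the mixtures hold without a change in EGF or insulin. It called 24 genes higher (0.296%) and 13 lower (0.16%), with a median SE of 0.26 over 2 arrays a side against 0.15 for the mean of 3 settings. With the replicate block it called 48 and 55. The EGF mixtures called 43 higher (0.531%) and 43 lower (0.531%), and the insulin mixtures 14 higher (0.173%) and 8 lower (0.0987%). With the block these came to 309 and 148 genes in all. Removing an array left 5 calls for TNF alone without TNF 5 ng/ml replicate 2, 7 without TNF 100 ng/ml replicate 2 and 18 without TNF 100 ng/ml replicate 1. After median centring TNF alone called 8.

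To test this on separate arrays, genes were called on the mean of the EGF and insulin mixtures and then read in the TNF-alone arrays. The mixtures called 160 genes. Of these, 154 had the same sign with TNF alone, and 99 (61.9%) also had an unadjusted p under 0.05 there. Over all genes 8.75% had an unadjusted p under 0.05 with TNF alone, in either direction. Of the 84 genes higher in the mixtures 60 held, and of the 76 lower ones 39 held. With the block 224 genes held, and without both arrays of high ratio 37. Read the other way, 36 of the 37 genes called with TNF alone had the same sign in the mixtures and 31 also had an unadjusted p under 0.05 there. The matching share over all genes in the mixtures is not given here, so the counts of 36 and 31 stand without a background. The 6 genes with opposite signs were chosen by that sign after the values were seen. HAND1 was also the 1 fall over the 3 settings with an opposite sign in TNF alone. DKK1, a Wnt antagonist, and FOSL1, a subunit of AP-1, were higher in the mixtures, by 0.59 and 0.54, and at -0.35 and -0.02 with TNF alone. HAND1, EXO1, POLA1 and SMCO4 were lower in the mixtures, by 1.85, 0.81, 0.67 and 0.67, and at 0.28, 0.29, 0.30 and 0.24 with TNF alone.

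**Figure D4:**
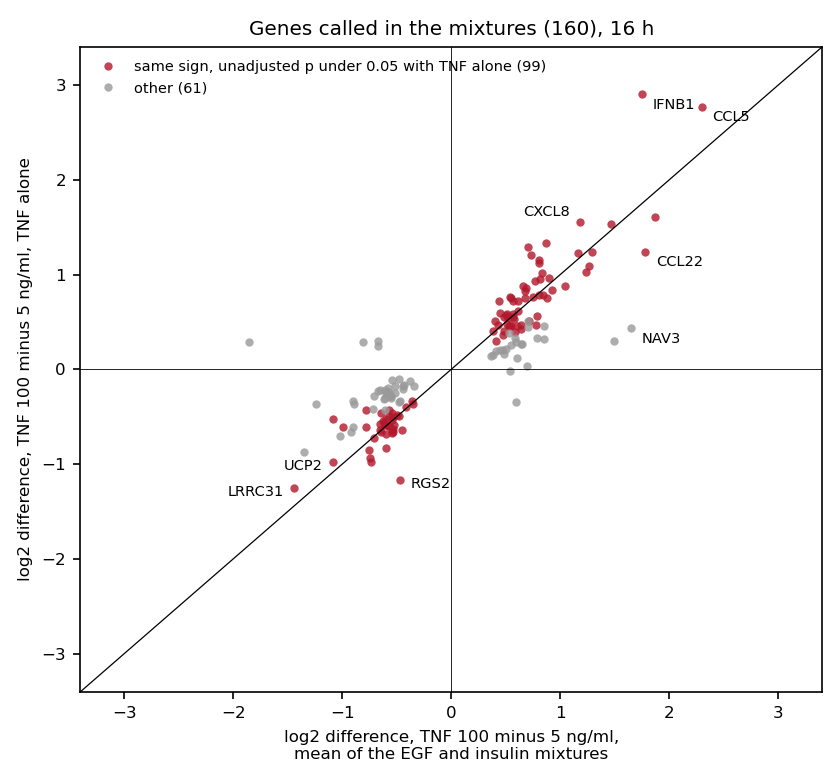
Log2 difference of TNF 100 minus 5 ng/ml with TNF alone (vertical) against the mean of the EGF and insulin mixtures (horizontal) for the 160 genes called in the mixtures, each point 1 gene, with the line of equal values. The 99 genes that held with TNF alone are red, the other 61 grey, and CCL5 and IFNB1 lie at the upper right.

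The added factors at their high dose without TNF called few genes against untreated cells, 3 with EGF 100 ng/ml and 0 with insulin 500 ng/ml in limma. With the block these counts were 17 and 8. For insulin 462 genes had an unadjusted p under 0.05 without the block, and 775 with it. Of the 3 genes, 1 gene, CAPRIN2, was also called between the TNF doses. For CCL5 the difference from untreated cells was 0.40 with EGF and 0.83 with insulin, neither past the threshold (adjusted p = 0.999 and 0.74). IFNB1 had 7.08 and 12.4 with EGF and 14 and 18.5 with insulin, against 6.98 and 6.19 in untreated cells. These signals lie at or below the added constant or little above it, so no difference is given.

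Whether the dose difference itself depended on the added factor was tested as an interaction, and 5 genes passed (0.0617%), or 38 with the replicate block. NUDT1, which clears oxidised nucleotides, had 110 and 92.1 at the high doses with EGF against 29 and 13.8 at the low doses, but 13.5 and 11.1 against 57.1 and 54.1 with insulin. Its differences were 1.78 with EGF, -1.46 with insulin and 0.39 with TNF alone (adjusted p = 0.00169), at dim signals near the added constant. DKK1 had 3680 and 4550 at the high doses with EGF against 1890 and 2360 at the low doses, a difference of 0.95 ± 0.17. With TNF alone it had 1290 and 1320 against 1560 and 1780, a difference of -0.35 ± 0.17, and the interaction had an adjusted p of 0.0326. EGF 100 ng/ml without TNF had 4570 and 5080 and untreated cells 3400 and 3280. All arrays with TNF at 5 ng/ml lay below the untreated ones. HLA-DPB1, a chain of an MHC class II molecule, had -0.86 with EGF, 0.47 with insulin and -0.19 with TNF alone (adjusted p = 0.0205). NLE1, a factor of ribosome assembly, had 0.33, -0.89 and 0.23 (adjusted p = 0.0207), and SMC4, a subunit of condensin, -0.42, 0.48 and -0.59 (adjusted p = 0.0205). The cell cycle phosphatase CDC25B came next, with an adjusted p of 0.0743 (0.0214 with the block). The 5 calls depended on single arrays, and 1 was left without TNF 100 ng/ml with insulin 500 ng/ml replicate 1, without TNF 5 ng/ml with insulin 5 ng/ml replicate 1 or without its replicate 2. Without both arrays of high ratio, and in the fit of the 18 arrays at 16 h alone, limma left 0, with 406 and 544 genes at an unadjusted p under 0.05, against 497 with all arrays.

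The dose difference at 16 h was also set against that at 4 and 8 h, and 33 genes passed (0.407%), 20 with a more positive and 13 with a more negative difference at 16 h. With the replicate block 159 passed. CCL5 differed by 0.40 ± 0.18 at 4 h, 0.96 ± 0.18 at 8 h and 2.46 ± 0.18 at 16 h (adjusted p of the time test = 2.8e-05). IFNB1 had -0.15 ± 0.26, 0.36 ± 0.26 and 2.13 ± 0.26 (adjusted p = 0.000553). IGFBP6, which binds insulin-like growth factors, had -0.15, 0.04 and 0.74 (adjusted p = 0.000269), and cyclin D3, CCND3, -0.14, -0.38 and 0.45 (adjusted p = 0.000101). FAS had -0.18, 0.06 and 0.73 (adjusted p = 0.026).

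Among genes with the opposite course, UCP2 had -0.16, -0.31 and -1.05 and AKR1B10 -0.06, -0.10 and -0.82 at 4, 8 and 16 h, both with an adjusted p of 0.000269. RRM2 had 0.14, 0.04 and -0.54 (adjusted p = 0.0202). DKK1, one of the genes with a more positive difference at 16 h, had -0.81 ± 0.10 at 4 h, -0.24 ± 0.10 at 8 h and 0.28 ± 0.10 at 16 h (adjusted p of the time test = 0.000269). Its positive value at 16 h did not pass by itself (adjusted p = 0.0959), and with TNF alone DKK1 had -1.31, -1.40 and -0.35, negative at all 3 times. Other dose differences were present throughout. PI3 had 1.61, 1.42 and 1.28, CFLAR 0.44, 0.60 and 0.50, and the time test did not pass for either (adjusted p = 0.817 and 0.984). CX3CL1 had 1.33, 0.71 and 0.54, with an adjusted p of 0.0817, and 0.0125 with the block. CXCL8, with its largest difference late, had 0.33, 0.48 and 1.30, with an adjusted p of 0.0858, and 0.00237 with the block. The count of 33 fell to 17 without TNF 5 ng/ml replicate 1, TNF 5 ng/ml with EGF 1 ng/ml replicate 1 or TNF 5 ng/ml with insulin 5 ng/ml replicate 2, all at 16 h. It was 19 without TNF 100 ng/ml replicate 2, TNF 100 ng/ml with EGF 100 ng/ml replicate 1 or TNF 5 ng/ml replicate 2, 20 without TNF 100 ng/ml with insulin 500 ng/ml replicate 1, and 21 without TNF 100 ng/ml with EGF 100 ng/ml replicate 2 of 8 h.

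**Figure D5:**
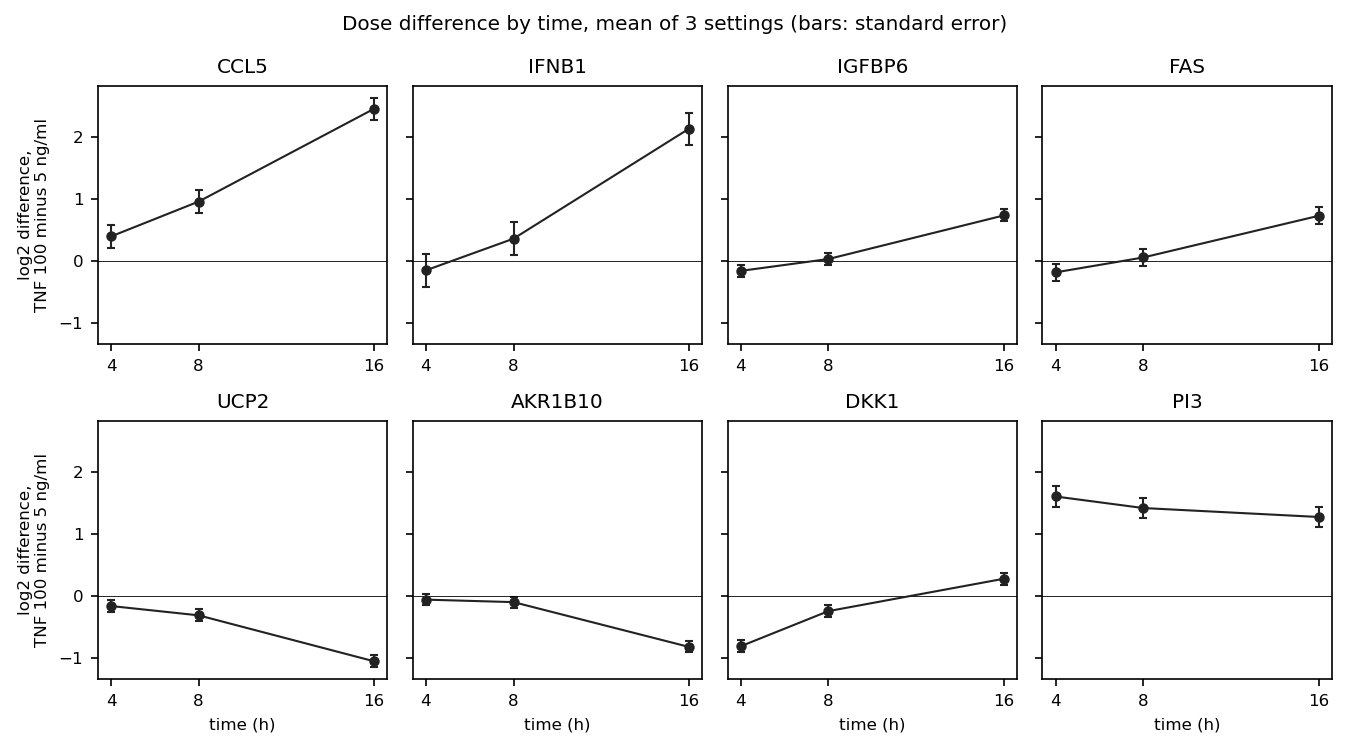
Log2 difference of TNF 100 minus 5 ng/ml, mean of the 3 settings (vertical), at 4, 8 and 16 h (horizontal) for 8 genes, with bars of 1 standard error. CCL5 and IFNB1 reach 2.46 and 2.13 at 16 h, UCP2 and AKR1B10 reach -1.05 and -0.82, DKK1 lies at -0.81, -0.24 and 0.28 (the last not past the threshold, and -0.35 with TNF alone), and PI3 lies between 1.28 and 1.61 throughout.

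Against untreated cells of the same time, TNF 5 ng/ml alone called 257 genes higher (3.17%) and 204 lower (2.52%). This comparison shares the low-dose arrays with the one above, so the values stand side by side only. CCL5 lay 5.06 above untreated cells with TNF 100 ng/ml alone and 2.29 above with TNF 5 ng/ml alone. CXCL8 lay 5.03 and 3.48 above, RSAD2 5.19 and 4.22, CX3CL1 3.22 and 2.63, and CXCL10 1.89 and 1.71. RGS2 lay at -4.05 and -2.88, RRM2 at -2.08 and -1.54, UCP2 at -2.12 and -1.15, and MCM4 at -1.65 and -1.01. DKK1 lay at -1.35 and -0.996.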

How the data were processed

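HT-29 RNA was hybridised to Affymetrix human genome arrays. The deposited table holds intensity values that the authors computed with MAS5, per the submitters' processing notes. Version, scanner settings and masks are not given in the sources used here. The 2% trimmed mean of every array lay between 500.171 and 500.221, so this scaling was kept. The precision is limited by 2 arrays a group.

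Of 22283 probe sets, 68 were controls. Values were taken as log2(signal + 12.49), the constant being the 10th percentile of all values, so differences of low genes are understated. Probe sets with a group mean of at least 7.24 (a signal of 138.9) in at least 1 of 27 groups were kept, 13422 in all. GEO's platform annotation gave 19065 probe sets 1 gene symbol, 1043 several and 2107 none. Each of 8105 genes was described by its kept probe set of highest mean over the 54 arrays. limma 3.58.1 (R 4.3.3) fitted 27 group means to 54 arrays (27 residual degrees of freedom, trended eBayes, median prior 6.45), with Benjamini-Hochberg adjustment over 13422 probe sets at 0.05. Contrasts were the mean of 3 settings, each setting, the difference between settings (F test) and 16 h against the mean of 4 and 8 h. The fit was tested on simulated data with independent errors between arrays. That test did not cover the shared deviations of same-numbered arrays given below.

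Alternatives were the normalization, constant, filter, arrays fitted, trend, replicate block and single arrays. The fit without 2 arrays of high 3′ to 5′ ratio was chosen after seeing the data. Same-numbered arrays deviated together: all 15 pairs of the 6 groups correlated by over 0.1 (0.149 to 0.303), and 31 of 36 over the 9 groups at 16 h. Named were the 12 largest rises and falls with 1 sign in all settings, up to 4 genes of each of 32 lists (520 of 664 members measured) by adjusted p, up to 6 genes of each interaction test, receptors, and 12 genes brought up earlier. The members and lists were chosen with earlier results of these data known. Other genes and the 6 of opposite sign were chosen after their values were seen. P-values measure the spread between replicate arrays, which may in part be technical.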

Additional observations from a re-analysis of the deposited data

Results flagged for a closer look

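The dose difference differed between the 3 settings for 5 genes by the interaction test in limma. Adjusted p were 0.00169 for NUDT1, 0.0205 for both HLA-DPB1 and SMC4, 0.0207 for NLE1 and 0.0326 for DKK1. NUDT1 was higher at the high dose with EGF and lower with insulin. DKK1 was higher with EGF and at -0.35 with TNF alone.

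The dose difference at 16 h differed from that at 4 and 8 h for 33 genes. Among those named, adjusted p in limma were 2.8e-05 for CCL5, 0.000101 for CCND3, 0.000269 for each of AKR1B10, DKK1, IGFBP6 and UCP2, and 0.000553 for IFNB1. They were 0.0134 for IER3, 0.0202 for both RRM2 and SERPING1, 0.026 for FAS and 0.0359 for SQLE. IER3 had -0.30, 0.04 and 0.38 and SQLE -0.02, -0.10 and 0.58 at 4, 8 and 16 h.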

How the results depend on the processing

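With the replicate block, calls were 813 for the mean of 3 settings (431 without it), 103 for TNF alone (37), 309 with EGF (86), 148 with insulin (22), 38 for the interaction with the added factor (5) and 159 for time (33), and 224 mixture calls held in TNF-alone arrays (99). After median centring these counts were 232, 8, 38, 9, 1 and 8 for the 6 tests. Quantile normalization gave 34 for insulin, the fit without the intensity trend 21 for time, the 18 arrays of 16 h alone 0 for the added factor, and the additive model of 12 arrays, which gives the mean only, 270. Without both arrays of high 3′ to 5′ ratio, chosen after seeing the data, the counts were 244 for the mean, 5 for insulin, 0 for the added factor, 13 for time and 37 held.

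Without single arrays the counts ranged over 270 to 367 for the mean, 5 to 27 for TNF alone, 20 to 80 with EGF, 3 to 25 with insulin, 1 to 7 for the added factor, 17 to 36 for time and 52 to 80 held. In these fits the lone array of a group is assumed to vary like those of other groups. With EGF 20 were left without TNF 100 ng/ml with EGF 100 ng/ml replicate 1, and 23 and 33 without replicates 1 and 2 of TNF 5 ng/ml with EGF 1 ng/ml. With insulin 14 were left without TNF 100 ng/ml with insulin 500 ng/ml replicate 1, and 10 and 3 without replicates 1 and 2 of TNF 5 ng/ml with insulin 5 ng/ml. The held count fell below 66 without 6 of the 8 mixture arrays. Of 153 named genes 92 were called, 46 of these in every setting tried, 57 without every single array and 45 in both, and 0 changed sign when called. Levels of genes near the added constant are measured poorly.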
